A study of Mus musculus with 36 samples.

Results

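The T-box factors Tbx2, Tbx3, Tbx5 and Tbx20, the Iroquois homeobox factors Irx3, Irx4 and Irx5, the LIM-homeodomain factor Isl1 and the nuclear receptor Nr2f2 were followed in mouse heart tissue from mid-gestation to old age. These 9 genes were taken by their symbols in the annotation of the array, with every probe set that carries such a symbol. They have 21 of the 45101 probe sets, and 16 of the 21 reached a mean log2 value above 5 in at least 1 stage, the level above which the study counted a transcript as expressed. Each of the 9 genes had at least 1 such probe set.

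All hearts came from mice of the outbred strain OF1 with no treatment and no engineered allele. They were collected daily between E10.5 and E19.5, from young adults of 10 weeks and from old adults, which were 14 months old by the series description and younger by the study's methods. Each of the 12 stages had 3 arrays, 36 in all. The 3 arrays of E10.5 and of E11.5 held male and female hearts together (mixed sex), and each later stage had a female, a male and a mixed-sex array. The tissue is labelled whole heart, so atria, ventricles, valves, vessels and nerves were measured together, and fewer cells of a type cannot be told apart from less RNA per cell. The extraction text of the labels names liver, whereas the tissue label and the methods name heart: none of the 5 liver markers had a stage mean above 5, and all 6 measured cardiac muscle markers did.

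In the embryo, the heart tube balloons into chambers while the tissue between them stays slow-conducting and becomes the conduction system. T-box factors divide this work. Tbx5 and Tbx20 switch on chamber genes, and Tbx2 and Tbx3 repress them in the atrioventricular canal, outflow tract and nodes. Iroquois factors pattern the chamber wall: Irx4 marks ventricular muscle, Irx3 is needed for fast conduction in the ventricle, and Irx5 sets up the difference in repolarization across the ventricular wall. Isl1 marks progenitors of the second heart field, which add to both poles of the tube, and is later found in the sinus node and in cardiac neurons. Nr2f2, also called COUP-TFII, sets atrial identity in muscle and venous identity in endothelium.

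Promoter windows were at hand for 5 of the 9 genes in RefSeq (build GRCm38.p6), and the 250 bases before each start are shown because they differ widely in CG content. Capitals mark CG dinucleotides, and each window is written 5′ to 3′ on the strand of its gene. The window of Irx4 lies inside the annotated span of the gene, before a start other than the outermost one, and the other 4 windows adjoin the outer end of their genes.
Tbx20 (chr9:24774304-24774553, minus strand): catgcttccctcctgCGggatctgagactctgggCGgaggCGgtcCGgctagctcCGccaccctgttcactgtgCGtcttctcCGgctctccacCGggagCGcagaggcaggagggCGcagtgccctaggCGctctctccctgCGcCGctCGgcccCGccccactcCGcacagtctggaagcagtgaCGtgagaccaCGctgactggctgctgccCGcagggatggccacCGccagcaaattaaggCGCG
Irx3 (chr8:91801655-91801904, minus strand): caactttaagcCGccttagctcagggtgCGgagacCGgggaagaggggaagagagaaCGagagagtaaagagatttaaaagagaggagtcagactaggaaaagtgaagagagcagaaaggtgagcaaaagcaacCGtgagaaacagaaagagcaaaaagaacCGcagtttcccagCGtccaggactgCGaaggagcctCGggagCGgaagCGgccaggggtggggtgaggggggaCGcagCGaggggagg
Irx4 (chr13:73260247-73260496, plus strand): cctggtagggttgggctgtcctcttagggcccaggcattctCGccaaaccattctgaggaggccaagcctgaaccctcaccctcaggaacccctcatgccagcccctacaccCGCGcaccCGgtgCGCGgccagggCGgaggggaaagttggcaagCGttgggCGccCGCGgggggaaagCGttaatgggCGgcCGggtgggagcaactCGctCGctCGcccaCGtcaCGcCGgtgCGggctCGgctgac
Isl1 (chr13:116309689-116309938, minus strand): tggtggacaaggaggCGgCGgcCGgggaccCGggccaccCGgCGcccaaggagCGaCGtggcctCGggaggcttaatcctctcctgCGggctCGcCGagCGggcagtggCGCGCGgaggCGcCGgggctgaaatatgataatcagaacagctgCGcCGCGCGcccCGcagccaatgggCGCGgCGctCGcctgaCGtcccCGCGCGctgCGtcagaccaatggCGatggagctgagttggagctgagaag
Nr2f2 (chr7:70366747-70366996, minus strand): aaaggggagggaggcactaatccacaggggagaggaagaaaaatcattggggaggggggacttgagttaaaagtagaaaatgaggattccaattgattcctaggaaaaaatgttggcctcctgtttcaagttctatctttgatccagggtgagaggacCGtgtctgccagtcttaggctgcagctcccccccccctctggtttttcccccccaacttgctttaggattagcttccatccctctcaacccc

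The windows of Tbx20, Irx4, Irx3 and Isl1 held 22, 22, 13 and 33 CG dinucleotides, and that of Nr2f2 held 1. Over all 32851 windows of the same length the median was 6. At least as many as in Isl1 were found in 4.03% of all windows, and at least as many as in Irx3 in 31.5%. For Nr2f2 that share was 92.1%. Of 6 motifs searched on both strands, the T-box half-site AGGTGT was in none of the 5 windows and in 11.8% of all windows. The GATA motif GATAA occurred only in the window of Isl1 (22.6% of all windows), and the NKX2-5 core AAGTG only in that of Irx3 (40.7%). The CCAAT box was found 2 times each in Isl1 and Nr2f2 (33.8%), the GC box GGGCGG 2 times each in Tbx20 and Irx4 (32.7%), and TATAA in none (22.8%). With 5 windows these are descriptions of sequence, and no match was taken for a site of binding.

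The main contrast of the study set each stage against the young adult heart. At E10.5, 7 of the 9 genes were higher than in the young adult (adjusted p under 0.05 in limma), none was lower, and Tbx3 and Nr2f2 did not pass. Of all 45101 probe sets, 27.1% were higher at that threshold and 35.9% lower. Among the 20685 probe sets with a stage mean above 5, 48.5% were higher and 25.3% lower. The stricter rule of the study, with an adjusted p under 1e-05, a log2 difference above 2 and a stage mean above 5, called Irx3, Irx4, Irx5 and Tbx20, 4 of the 9, beside 4.43% of all probe sets and 9.67% of those with a stage mean above 5. The median difference of the 9 genes was 1.57 on the log2 scale, against -0.19 over all probe sets and 0.41 over those with a stage mean above 5. A gene is given here by the probe set with its highest mean over the 36 arrays, and log2 values are levels of that probe set, not comparable between genes.

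The last 0.41 depended on the scaling. After a further quantile normalization of the probe sets it was 0.05, and with the array medians of expressed probe sets set equal it was -0.12. Relative to such a shift all 7 higher genes kept their direction with an adjusted p under 0.05 in both scalings, but the stricter rule then called 2 genes (Irx4 and Irx5) and 1 gene (Irx5). With the prefix of the array titles as a covariate, described with the comparison of E10.5 and E19.5, the 7 genes also passed and the stricter rule called Irx4 and Irx5. In both scalings Tbx3 and Nr2f2 became lower at E10.5 than in the young adult, with differences of -0.62 and -0.69 in the first and -0.67 and -0.75 in the second. The hybridization controls, bacterial and phage transcripts added to every sample, also moved with stage, from a mean log2 value of 10.16 at E10.5 to 12.34 in the young adult and 11.58 in the old adult. With their level as a covariate Irx5, Irx4, Irx3, Tbx5 and Isl1 stayed higher at E10.5, while Tbx2 and Tbx20 did not pass (differences 0.89 and 0.87, adjusted p = 0.16 and 0.19) and Nr2f2 became lower (-1.10, adjusted p = 0.020). The part of this level in the results was not tested otherwise.

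**Figure D1:**
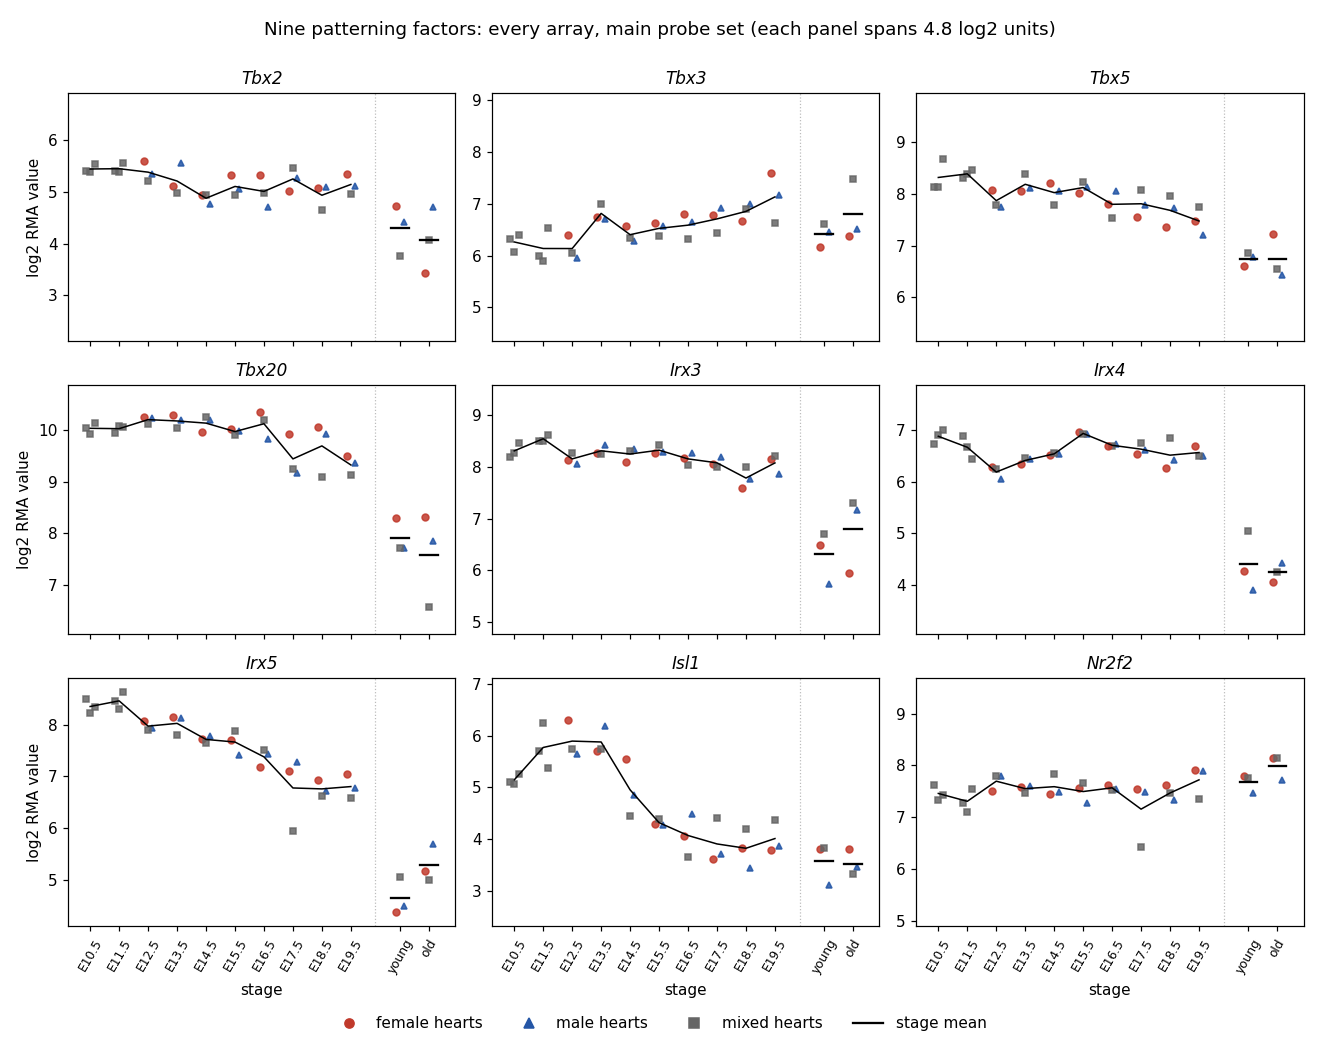
Log2 values of the main probe set of each gene (y axis, 4.8 log2 units in every panel) on every array at the 12 stages (x axis). Points are arrays by sex label and black lines stage means. Irx5 declined over the embryonic stages and again to the adult, Irx4 and Irx3 dropped from E19.5 to the adult, Isl1 had its highest means from E11.5 to E13.5, and Nr2f2 lay between 7.15 and 8.0 in all stage means.

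Irx5 had the largest difference of the 9 genes. Its 3 arrays at E10.5 read 8.50, 8.22 and 8.34, those at E19.5 read 7.04 (female), 6.79 (male) and 6.59 (mixed), and those of the young adult 4.38, 4.5 and 5.06. The 3 groups did not overlap, and the old adult arrays at 5.17, 5.69 and 4.99 overlapped only with the young adult ones. At E10.5 Irx5 was 13.0-fold higher than in the young adult (log2 difference 3.71 ± 0.23 SE, adjusted p = 9.97e-15), and at E19.5 still 4.46-fold higher (2.16 ± 0.23, adjusted p = 8.38e-09). The E10.5 mean was above that of E19.5 by 1.55 ± 0.23 (adjusted p = 2.37e-06). The stage means ran 8.35, 8.46, 7.97, 8.03, 7.71, 7.66, 7.38, 6.78, 6.76 and 6.80 from E10.5 to E19.5. The arrays of E17.5, E18.5 and E19.5 overlapped. One array stood apart there: the mixed-sex E17.5 array read 5.94, against 7.11 and 7.29 for the female and male arrays. It also had the lowest correlation with the other arrays of its stage (mean r 0.97).

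Irx4 is the ventricular member. Its arrays read 6.73, 6.89 and 7.01 at E10.5, 6.70, 6.49 and 6.5 at E19.5, 4.27, 3.91 and 5.04 in the young adult and 4.06, 4.43 and 4.26 in the old adult. All embryonic arrays lay above all adult ones. The log2 difference from the young adult was 2.47 ± 0.18 at E10.5 (5.53-fold, adjusted p = 4.11e-13) and 2.15 ± 0.18 at E19.5 (4.45-fold, adjusted p = 4.76e-11). Between these embryonic ends the difference was 0.32 ± 0.18 (adjusted p = 0.15). Within the embryo the lowest stage mean was 6.18 at E12.5 and the highest 6.93 at E15.5. No array of E15.5 (6.91 to 6.96) overlapped with those of E12.5 (6.04 to 6.27).

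Irx3, which lies next to Irx5 on chromosome 8 with no protein-coding gene of the RefSeq table between them, is linked to fast ventricular conduction. Its arrays read 8.20, 8.27 and 8.46 at E10.5, 8.16, 7.86 and 8.21 at E19.5, and 6.49, 5.73 and 6.71 in the young adult. The E10.5 and E19.5 arrays overlapped (difference 0.23 ± 0.22, adjusted p = 0.39), and both groups lay above the young adult. The difference from the young adult was 2.00 ± 0.22 at E10.5 (4.0-fold, adjusted p = 4.68e-09), just past the limit of 2 in the stricter rule, and 1.77 ± 0.22 at E19.5 (3.40-fold, adjusted p = 1.89e-07). The old adult arrays of Irx3 were spread widely, at 5.96 (female), 7.17 (male) and 7.30 (mixed).

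Tbx20, a factor of chamber growth and maturation, read 10.04, 9.92 and 10.14 at E10.5. At E19.5 its main probe set read 9.49, 9.35 and 9.12, and in the young adult 8.29, 7.72 and 7.73, with no overlap between the 3 groups. The log2 difference from the young adult was 2.12 ± 0.27 at E10.5 (4.35-fold, adjusted p = 7.53e-08) and 1.41 ± 0.27 at E19.5 (2.66-fold, adjusted p = 1.40e-04). The stricter call of Tbx20 at E10.5 rested on this probe set: the second gave 1.19 ± 0.29 (2.27-fold, adjusted p = 9.61e-04) and the third 1.88 ± 0.30 (3.69-fold, adjusted p = 3.43e-06), both under the limit of 2. The mixed-sex old adult array was low, at 6.57 against 7.86 and 8.31. The old adult arrays also stood apart in the mean level of the 8 atrial myocardium genes, at 9.32 (female), 7.30 (male) and 7.09 (mixed) against 7.88 to 8.04 in the young adult, and of the 6 epicardium markers, at 6.01, 4.93 and 4.52 against 4.43 to 5.04. The part of this in the old adult values of the 9 genes was not tested.

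Tbx5, whose loss of 1 copy causes heart and hand malformations in people, read 8.14, 8.13 and 8.68 at E10.5 and 6.61, 6.78 and 6.85 in the young adult. It was 2.97-fold higher at E10.5 (1.57 ± 0.20, adjusted p = 4.69e-08) and 1.66-fold higher at E19.5 (0.73 ± 0.20, adjusted p = 0.0048). Both further scalings ended the call at E19.5 (0.62, adjusted p = 0.060, and 0.54, adjusted p = 0.079), as did the mean over its probe sets (0.22, adjusted p = 0.31). Its second probe set stayed between 2.95 and 3.39 in all stage means and passed in neither comparison.

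Tbx2, a repressor of chamber genes in the atrioventricular canal and outflow tract, was near the level limit throughout. It read 5.41, 5.38 and 5.53 at E10.5, 5.35, 5.11 and 4.97 at E19.5, and 4.73, 4.41 and 3.77 in the young adult. The difference from the young adult was 1.14 ± 0.23 at E10.5 (2.20-fold, adjusted p = 1.05e-04) and 0.84 ± 0.23 at E19.5 (1.79-fold, adjusted p = 0.0059). The latter was lost without the mixed-sex young adult array (0.57, adjusted p = 0.079). The adult means of 4.30 and 4.07 lay below the level of 5.

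Tbx3, the repressor of the nodes and conduction system, was the one gene of the 9 whose main probe set passed as lower at E10.5 than at E19.5 on the deposited values. Its arrays read 6.32, 6.07 and 6.40 at E10.5 and 7.61 (female), 7.18 (male) and 6.62 (mixed) at E19.5, with no overlap. It was 0.87 ± 0.23 lower at E10.5 than at E19.5 (1.83-fold, adjusted p = 0.0029), and by 0.63 with the hybridization controls as a covariate, which did not pass (adjusted p = 0.18). The young adult arrays, at 6.16, 6.46 and 6.61, overlapped with those of E10.5 (difference -0.15 ± 0.23, adjusted p = 0.58) and lay below all those of E19.5 (0.72 ± 0.23, adjusted p = 0.017). That last call was lost without the female E19.5 array (0.49, adjusted p = 0.16), without the female young adult array (0.60, adjusted p = 0.083) with equal array medians (0.54, adjusted p = 0.078), for the mean over the 5 probe sets (0.27, adjusted p = 0.20) and in a fit of only these 6 arrays (adjusted p = 0.059). The mean over the 5 probe sets was lower at E10.5 than in the young adult (-0.43, adjusted p = 0.018). Between E10.5 and E19.5 the second brightest probe set of Tbx3 did not pass (-0.30 ± 0.22, adjusted p = 0.26), and its arrays overlapped. Tbx3 and Tbx5 are neighbours on chromosome 5, with no protein-coding gene of the RefSeq table between them, and Tbx5 was 0.84 ± 0.20 higher at E10.5 than at E19.5 (adjusted p = 8.51e-04), a call that was lost after a further quantile normalization (0.42, adjusted p = 0.20) and with equal array medians (0.50, adjusted p = 0.064).

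Isl1 had its highest stage mean at E12.5, at 5.89, and from E16.5 on its arrays overlapped with those of the young adult. Its arrays read 5.10, 5.07 and 5.26 at E10.5, 5.70 (female), 6.19 (male) and 5.74 (mixed) at E13.5, and 3.79, 3.87 and 4.36 at E19.5. The young adult arrays read 3.81, 3.12 and 3.83. The E13.5 arrays lay above all of E19.5 and of the adult, which overlapped with each other. The log2 difference from the young adult was 2.29 ± 0.27 at E13.5 (4.90-fold, adjusted p = 2.36e-08), 1.37 ± 0.27 at E14.5 (adjusted p = 1.12e-04), 0.73 ± 0.27 at E15.5 (adjusted p = 0.029) and 0.49 ± 0.27 at E16.5 (adjusted p = 0.16). Its second probe set moved further, from 5.42 at E13.5 to 2.71 at E19.5 and 2.45 in the young adult, and at E10.5 was 6.75-fold higher than in the young adult (2.76 ± 0.24, adjusted p = 2.19e-11). By that probe set Isl1 passed the stricter rule at E10.5, and by the main one, at 1.56 ± 0.27 (adjusted p = 1.28e-05), it did not.

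At its main probe set Nr2f2 passed at neither end of the embryonic series on the deposited values. Its main probe set read 7.62, 7.33 and 7.42 at E10.5, 7.90, 7.90 and 7.36 at E19.5, and 7.80, 7.47 and 7.76 in the young adult, and these groups overlapped. The differences from the young adult were -0.22 ± 0.20 at E10.5 (adjusted p = 0.34) and 0.04 ± 0.20 at E19.5 (adjusted p = 0.90). The mixed-sex E17.5 array was again low, at 6.43 against 7.55 and 7.48, and with it the E17.5 mean was lower than in the young adult by 0.52 ± 0.20 (adjusted p = 0.045).

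**Figure D2:**
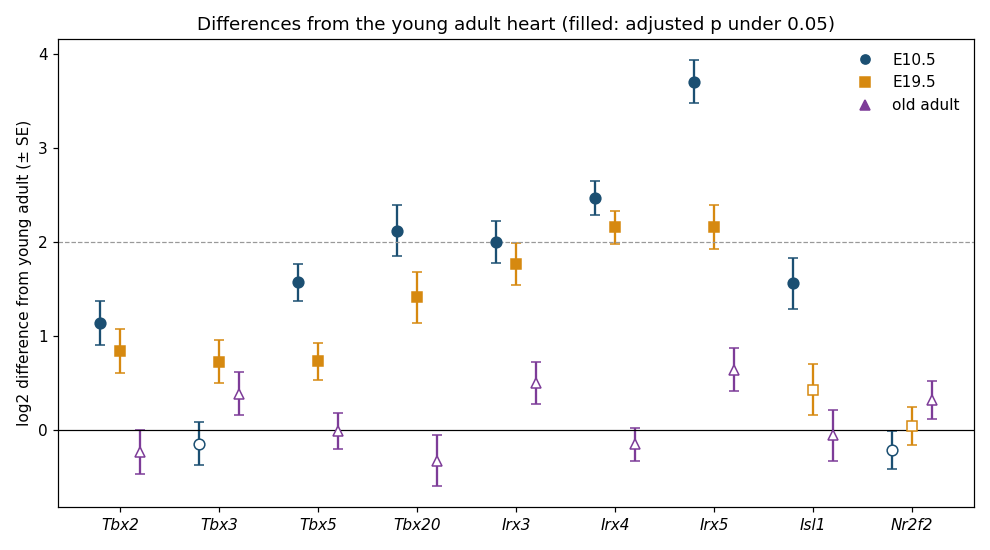
Log2 difference of each gene from the young adult heart (y axis, ± SE of the limma fit) at E10.5, E19.5 and in the old adult, with 3 arrays a stage. Filled points have an adjusted p under 0.05 and the dashed line marks a difference of 2; Irx5 at E10.5 is the highest point at 3.71, Irx4 and Irx5 still lie above 2 at E19.5, and no old adult point is filled.

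At E19.5, 7 of the 9 genes were higher than in the young adult (15.5% of all probe sets were, and 29.3% of those with a stage mean above 5), none was lower (13.6% and 16.5%), and Isl1 and Nr2f2 did not pass. The stricter rule called Irx4 and Irx5 (0.818% of all probe sets and 1.78% of those with a stage mean above 5). The median difference of the 9 genes was 0.84, against -0.04 over all probe sets. Across the embryonic stages the stricter rule called 4, 5, 3, 5, 3, 4, 3, 2, 2 and 2 of the 9 genes from E10.5 to E19.5, each of them higher than in the young adult. The share of all probe sets it called higher was 4.43%, 3.56%, 3.36%, 2.78%, 2.65%, 2.45%, 2.21%, 1.52%, 1.45% and 0.818% in turn. Irx5 was called at all 10 stages and Irx4 at all but E12.5, where its difference of 1.78 was under the limit. Irx3 and Irx4 were just inside the limit at E13.5 with 2.00 each, and Irx3 was just outside at E14.5 with 1.94. Tbx20 was called from E10.5 to E16.5, and Isl1 at E11.5, E12.5 and E13.5. These comparisons share the 3 young adult arrays. Without the male young adult array the count at E19.5 was 1 in place of 2, and with equal array medians it was 0, both genes then lying at 1.97.

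Within the embryo, E10.5 was set against E19.5. Tbx5, Tbx20, Irx5 and Isl1 were higher at E10.5 (4 of 9, beside 21.8% of all probe sets and 39% of those with a stage mean above 5), and Tbx3 was lower (23.7% of all and 23.3% of those with a stage mean above 5). None of the 9 passed the stricter rule at its main probe set (3.23% of the probe sets with a stage mean above 5 were called higher), whereas the second probe set of Isl1 did, with 2.5 ± 0.24 (adjusted p = 7.70e-10). Irx5 and Isl1 differed most, by 1.55 and 1.13. The titles of the arrays change their prefix within E16.5, from its female array on, so that E10.5 and E19.5 differ in prefix as well. With the prefix as a covariate, an alternative chosen after seeing the data whose term rests on the 3 arrays of E16.5, Irx5 passed (1.25 ± 0.42, adjusted p = 0.040) and the other 4 did not (Isl1 1.13, Tbx5 0.84, Tbx20 1.05 and Tbx3 -0.56, adjusted p between 0.11 and 0.38). At its main probe set Nr2f2 became lower at E10.5 than at E19.5 after a further quantile normalization (-0.67, adjusted p = 0.0030), with equal array medians (-0.61, adjusted p = 0.0052) and with the hybridization controls as a covariate (-0.76, adjusted p = 0.029). Tbx20 passed at its main probe set (0.71 ± 0.27, adjusted p = 0.034) but not at its second (-0.48 ± 0.29, adjusted p = 0.18), nor in either further scaling (adjusted p = 0.20 and 0.19). With the hybridization controls as a covariate its difference was 2.65e-04. The main-probe call was also lost when any 1 of the 3 E10.5 arrays, or the male or the mixed-sex E19.5 array, was left out, with differences of 0.61 to 0.77 (adjusted p between 0.053 and 0.13).

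A straight line over the 30 embryonic arrays gave the mean change per day. Such a line does not show a peak within the series. Isl1 had a slope of -0.241 ± 0.032 log2 units a day (adjusted p = 1.12e-07), but its stage means were 5.14 at E10.5, 5.89 at E12.5 and 4.01 at E19.5. Irx5 fell by 0.205 ± 0.018 (adjusted p = 2.02e-11), Tbx5 by 0.0841 ± 0.015 (adjusted p = 1.56e-05) and Tbx20 had a slope of -0.0777 ± 0.018 (adjusted p = 4.44e-04). The slope was -0.0497 ± 0.011 for Irx3 and -0.0443 ± 0.015 for Tbx2 (adjusted p = 3.71e-04 and 0.0090). Tbx3 rose by 0.0919 ± 0.017 (adjusted p = 2.98e-05). Irx4, at -0.0025 ± 0.015, and Nr2f2, at 0.0046 ± 0.017, did not pass (adjusted p = 0.89 and 0.82). Thus 6 of 9 genes had a falling line and 1 a rising line, beside 25.4% and 42.1% of all probe sets and 45% and 28.8% of those with a stage mean above 5. Of the 7 genes that passed, Irx5, Isl1 and Tbx3 kept direction and call in all alternatives tried for the slope, and Tbx2, Tbx5, Tbx20 and Irx3 lost the call in at least 1. For Irx3 the slope was -0.0045 (adjusted p = 0.81) after a further quantile normalization and -0.014 (adjusted p = 0.35) with equal array medians, and for Nr2f2 it was 0.048 (adjusted p = 0.0063) and 0.041 (adjusted p = 0.013) in the same scalings. Leaving out the mixed-sex E17.5 array, an alternative chosen after seeing the data, gave -0.193 for Irx5 and 0.0162 for Nr2f2, with the same 7 calls.

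**Figure D3:**
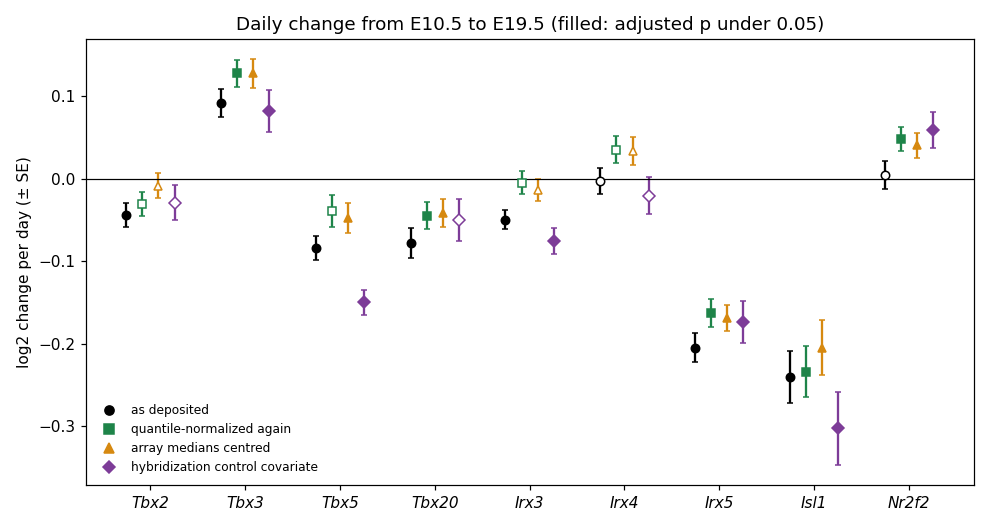
Mean log2 change per day from E10.5 to E19.5 (y axis, ± SE, 30 arrays) for each gene on the deposited values and in 3 alternatives. Filled symbols have an adjusted p under 0.05; Irx5 and Isl1 lie below and Tbx3 above 0 in all 4, whereas Irx4 changes side without passing and Irx3 and Tbx2 lose their call in 2 and in 3 alternatives.

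None of the 9 genes passed at an adjusted p under 0.05 in limma in any of the 9 daily steps from E10.5 to E19.5, where 2.53%, 0.0976%, 1.25%, 0.0599%, 0.0377%, 0.0111%, 0.0133%, 0% and 1.33% of all probe sets did. At an unadjusted p under 0.05, 1, 3, 1, 1, 2, 0, 2, 0 and 0 genes passed in turn. The share of all probe sets at that unadjusted limit was not counted, so these counts cannot be set against it. The largest of these steps was the fall of Isl1 from E13.5 to E14.5, by 0.93 ± 0.27 (unadjusted p = 0.0018, adjusted p = 0.52), and it was followed by a further fall of 0.63 to E15.5 (unadjusted p = 0.026). Tbx3 differed by 0.68 between E12.5 and E13.5 (unadjusted p = 0.0061, adjusted p = 0.13).

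Probe sets of the same gene did not always run together. The second probe set of Tbx20 went from 8.49 ± 0.29 (SD, n = 3) at E10.5 to 9.35 ± 0.12 at E13.5, while the main one stayed between 10.02 and 10.20 over those days. Its slope was -0.0085 a day (adjusted p = 0.74), and that of the third, a dim probe set, -0.157 (adjusted p = 5.14e-06). All 3 were lower in the young adult than at E10.5 and than at E19.5. Of the 5 probe sets of Tbx3, 4 rose with embryonic day, the steepest by 0.122 a day (adjusted p = 2.58e-06), beside 42.1% of all probe sets and 28.8% of those with a stage mean above 5. Of the rising ones only the main and the steepest reached a stage mean above 5. The remaining rising ones were dim, with highest stage means of 3.82 and 2.92. The one that did not rise was at 0.0136 a day (adjusted p = 0.47) and reached a stage mean of 6.08. That steepest one read 4.56 at E10.5 and 6.04 at E19.5, a difference of -1.48 ± 0.24 (adjusted p = 8.71e-06). For Nr2f2 the 4 further probe sets were dim, with stage means between 3.22 and 5.16. One of them was at 4.28 ± 0.13 in the young adult and 5.16 ± 0.40 in the old adult, and another was lower at E10.5 than in the young adult (-0.87 ± 0.29, adjusted p = 0.011). That other one was also lower at E10.5 than at E19.5 (-0.71 ± 0.29, adjusted p = 0.047). So was a further dim one (-0.54 ± 0.19, adjusted p = 0.021). The labels name a kit that amplifies from the poly(A) end, and where the probe sets lie in their transcripts was not analysed here.

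**Figure D4:**
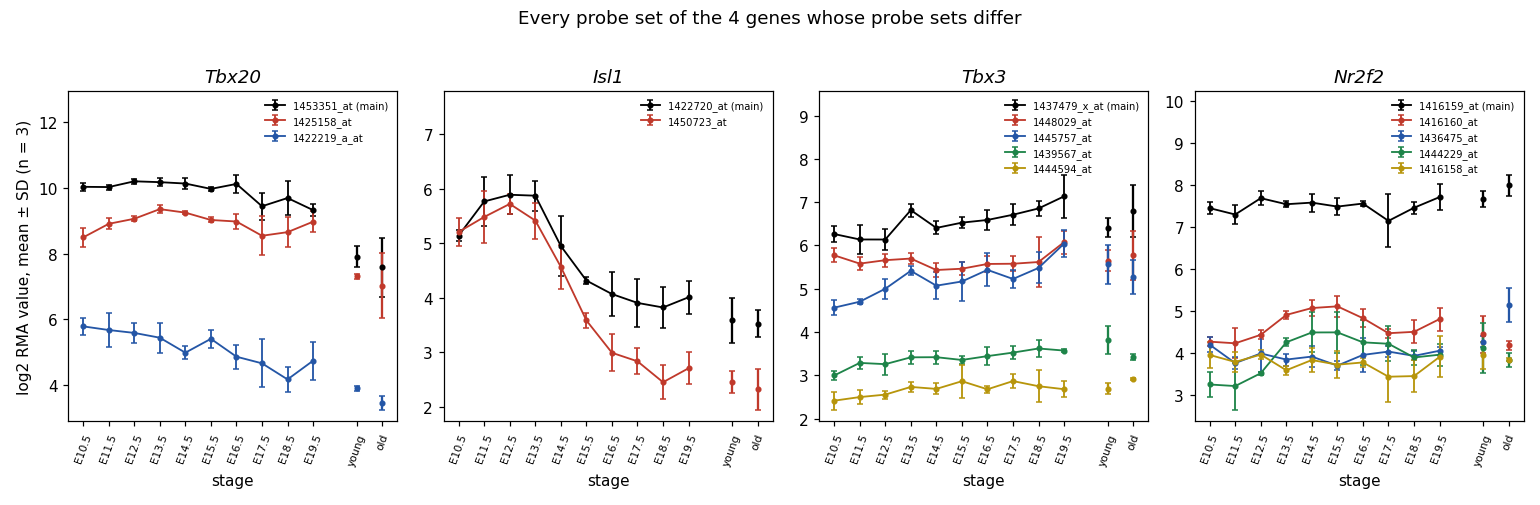
Mean log2 value ± SD (y axis, 3 arrays a stage) of every probe set of Tbx20, Isl1, Tbx3 and Nr2f2 at the 12 stages (x axis). Both probe sets of Isl1 fall together after E13.5, the brightest 2 of Tbx20 draw together between E10.5 and E13.5, and the dim probe sets of Nr2f2 vary around a level of 4.

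Old adult hearts were compared with young adult ones. None of the 9 genes passed at its main probe set in limma (3.83% of all probe sets were higher and 3.13% lower), none passed the stricter rule (0.00443% were called higher), and 2 had an unadjusted p under 0.05, Irx5 with a difference of 0.64 ± 0.23 (adjusted p = 0.085) and Irx3 with 0.50 ± 0.22 (adjusted p = 0.17). Here too the share of all probe sets at the unadjusted limit was not counted. The young and old arrays overlapped for each of the 9 genes. Without the mixed-sex young adult array Irx5 passed (0.85, adjusted p = 0.043), and without the female old adult array, the one with the high level of atrial genes, Irx3 did (0.93, adjusted p = 0.0016). Of the 21 probe sets, 1 passed. This was the dim probe set of Nr2f2 given above at 5.16 in the old adult. It read 5.53, 5.22 and 4.73 in the old adult and 4.19, 4.23 and 4.43 in the young adult, without overlap, a difference of 0.88 ± 0.19 (1.84-fold, adjusted p = 0.0054). The main probe set of Nr2f2 differed by 0.32 ± 0.20 (adjusted p = 0.36).

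Male and female arrays were paired by stage in the 9 stages after E12.5. None of the 9 genes passed at an adjusted p under 0.05 in limma (0.0488% of all probe sets did), and 1 had an unadjusted p under 0.05. This was Tbx20, 0.28 ± 0.10 lower in males (unadjusted p = 0.012, adjusted p = 0.56) and higher in the male array of 1 of 9 pairs. At the main probe sets the sex difference in mature hearts passed against that in embryonic hearts for none of the 9 genes in limma (0.548% of all probe sets passed), also at an unadjusted p under 0.05, and the lowest adjusted p was 0.40, for Isl1. A dim probe set of Nr2f2 gave 1.05 ± 0.33 in the same fit (unadjusted p = 0.0052, adjusted p = 0.15).

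The closest patterns to each gene were sought over the 12 stage means among 13177 probe sets with 1 symbol, a stage mean above 5 and a range of stage means above 1. These correlations are descriptions, since all points share the same arrays and most of the 9 genes share a fall into the adult. For Irx5 the closest were Thrap3, Kdm1a and Zwint (Pearson r = 0.995, 0.994 and 0.994), for Irx3 Suv420h1, 2610005L07Rik and Rnps1 (0.99 each), and for Irx4 Usp28, Sssca1 and Tln1 (0.99, 0.99 and 0.98). Tbx20 ran with Cbx3, Marcksl1 and Col4a5 (0.99 each), Tbx5 with Aaas, Seh1l and Nup188 (0.99, 0.99 and 0.98), and Tbx2 with Zfp687, Tmod1 and Orc3 (0.98, 0.97 and 0.97). For Isl1 they were Foxc1, Ltbp1 and Syt11 (0.98 each). Tbx3 was closest to AU018552, 6030451C04Rik and Ti-gl1 (0.93, 0.88 and 0.86) and Nr2f2 to 5430406J06Rik, E030016H06Rik and Sulf1 (0.88, 0.87 and 0.86). These lower values cannot be read as a trait of Tbx3 and Nr2f2. Their own ranges of stage means, 0.998 and 0.842, lay under the limit of 1 for candidates, so probe sets with so small a range were not searched. Among the 9 genes themselves, r over the 10 embryonic stage means was 0.84 between Irx3 and Irx5, 0.89 between Tbx5 and Irx5, 0.08 between Irx4 and Irx5 and -0.69 between Tbx3 and Tbx5.

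Relatives of the 9 genes were read from the same fit. In it 27.1% of all probe sets were higher at E10.5 than in the young adult and 35.9% lower. Of the 12 other T-box genes measured, 2 had a stage mean above 5, and 2 were higher and 4 lower at E10.5 than in the young adult, with a median of -0.25. Tbx18, a factor of the epicardium and the sinus horns, was higher by 3.89 ± 0.35 (adjusted p = 6.60e-11), and the T-box and basic helix-loop-helix factor Mga by 1.61 ± 0.20 (adjusted p = 3.37e-08). Tbx1, a factor of the pharyngeal second heart field, was lower by 1.74 ± 0.23 (adjusted p = 1.64e-07) with stage means at or below 4.90. Of the other Iroquois genes, Irx2 was higher by 1.33 ± 0.18 (adjusted p = 1.32e-07), while Irx1 and Irx6, at 0.02 and -0.16, did not pass. Of the 7 relatives and partners of Isl1 and Nr2f2, 2 were higher and 3 lower. Zfpm2, the cofactor FOG2 that binds Nr2f2 and GATA4, was higher by 2.98 ± 0.36 (adjusted p = 2.78e-08) and Nr2f1 by 1.38 ± 0.20 (adjusted p = 5.24e-07), and Nr2f6 was lower by 1.22 ± 0.14 (adjusted p = 1.58e-08).

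Genes of the regions that these factors pattern were counted in the same way, with some genes in 2 lists. At this threshold 27.1% of all probe sets were higher at E10.5 than in the young adult and 35.9% lower. Among those with a stage mean above 5 the shares were 48.5% and 25.3%. No list was tested against these shares. Of 12 working chamber genes, 2 were higher at E10.5 than in the young adult and 4 lower. Cited1, a transcriptional cofactor of early chamber muscle, was higher by 5.00 ± 0.58 (adjusted p = 1.05e-08) and the proliferation-linked transcription factor gene Mycn by 3.07 ± 0.37 (adjusted p = 2.32e-08). The potassium channel gene Kcnd2, a target repressed by Irx5, was lower at E10.5 by 1.54 ± 0.24 (adjusted p = 2.95e-06), with stage means at or below 5.08. Of 8 atrial myocardium genes, Tbx5 among them, 4 were higher and 1 lower. That one was Sln, which encodes the calcium pump inhibitor sarcolipin of the atria and was lower by 6.09 ± 0.59 (adjusted p = 3.31e-10), while the atrial light chain gene Myl7 and the channel gene Kcnj5 were higher by 1.94 ± 0.47 and 1.98 ± 0.24. Of 7 ventricular myocardium genes, Irx4 among them, 4 were higher and none lower. Hey2, a Notch-pathway repressor of atrial genes in the ventricle, was higher by 4.29 ± 0.26 (adjusted p = 9.71e-15).

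Of 11 measured atrioventricular canal and conduction genes, 6 were higher and 1 lower (27.1% and 35.9% of all probe sets were), with a median of 0.80. The T-type calcium channel gene Cacna1h was higher by 4.36 ± 0.17 (adjusted p = 1.26e-19), Id2 by 2.66 ± 0.34 (adjusted p = 6.07e-08), and Bmp2, which induces Tbx2 in the canal, by 2.28 ± 0.15 (adjusted p = 3.37e-14). Of 12 second heart field and outflow tract genes, 4 were higher and 5 lower. The ligand gene Wnt5a was higher by 3.93 ± 0.24 (adjusted p = 7.07e-15), Hand2 by 2.41 ± 0.18 (adjusted p = 6.73e-13) and Sema3c by 1.80 ± 0.33 (adjusted p = 2.43e-05). Of 7 venous and lymphatic endothelium genes, a compartment of Nr2f2 beside atrial muscle, none was higher and 5 were lower at E10.5, with a median of -1.49. The apelin receptor gene Aplnr was lower by 3.69 ± 0.23, Nrp2 by 2.71 ± 0.15 and the lymphatic receptor gene Lyve1 by 2.64 ± 0.19. Of 6 arterial endothelium genes, 1 was higher (Efnb2, 0.56 ± 0.22) and 2 lower (Sox17, -2.87 ± 0.23, and Dll4, -1.18 ± 0.18).

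Markers of cell types and tissues that could enter the dissection moved as follows between E10.5 and the young adult. Beside them, 27.1% of all probe sets were higher at E10.5 and 35.9% lower. Of 6 measured cardiac muscle markers, 3 were higher and 2 lower. Of 6 epicardium markers 4 were higher and 1 lower, of 4 smooth muscle markers 2 and 1, and of 5 fibroblast markers 1 and 2. Of 8 autonomic neuron markers, which bear on Isl1, 3 had a stage mean above 5, and 1 was higher and 5 lower. The higher one, also among those 3, was Hand2, which is counted with the second heart field and outflow tract genes as well. Of these 8, Th, which encodes the enzyme tyrosine hydroxylase of sympathetic neurons, stayed at or below a stage mean of 3.46. Of 5 measured lung and foregut markers 1 had a stage mean above 5, of 6 thymus and lymphocyte markers none, and of 5 skeletal muscle markers 1 (Acta1, also a gene of embryonic heart muscle). The part of any of these cell types in the values of the 9 genes was not tested.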

How the data were processed

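The authors summarized the arrays (Affymetrix 3′ expression arrays, total RNA labelled after amplification) by robust multi-array average, and the deposited values are background-corrected, quantile-normalized log2 intensities of 45101 probe sets. The submitters' processing notes name Affymetrix Expression Console, Partek 6.6 and RMA. The values were used without further scaling. Array medians lay between 4.0 and 4.20, and 3 arrays a stage limit the precision of each mean. The 3 arrays of a stage were separate collections of hearts.

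Differences were fitted with limma 3.58.1 in R 4.3.3 as 1 model with 12 stage means over 36 arrays, with Benjamini-Hochberg adjustment over all 45101 probe sets. Slopes used 30 embryonic arrays, and sex used 9 pairs with stage as a block. Calls followed the study's rule (adjusted p under 1e-05, log2 difference above 2, a stage mean above 5) or an adjusted p under 0.05. Scripts were tested on simulated data. All probe sets of the 9 genes are given, the one with the highest mean leading. Up to 3 genes of each of 19 lists were named, those with the largest difference between E10.5 and young adult, and the 3 genes most alike each member. The members and lists were chosen with earlier results of these data known. Alternatives were a further quantile normalization, centring, a level filter, an intensity trend with robust variances, the sex label as a block, the hybridization controls as a covariate, the mean of a gene's probe sets, 2-group fits and left-out arrays. Array titles change their prefix from the female E16.5 array on, and whether this marks a batch is not stated. Only E16.5 holds both kinds, so a fit with the prefix as a covariate, added after the data were seen, separates it from stage by 3 arrays. The list genes Tbx10, Hcn4, Gjd3, Myh6 and Scgb1a1 were not analysed here, nor were microRNAs.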

Additional observations from a re-analysis of the deposited data

How the results depend on the processing

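The count of genes passing an adjusted p under 0.05 stayed within 1.5 times its value in the alternatives tried for E10.5 and E19.5 against young adult, E10.5 against E19.5, the slope and sex (7, 7, 5, 7 and 0), except that with the title prefix as a covariate it was 1 for E10.5 against E19.5. The count under the study's stricter rule was less stable. For E10.5 against young adult it was 4, and 2 after a further quantile normalization, 1 with centred array medians, 2 with the title prefix as a covariate and 1 in a fit of only the arrays of both groups. For E19.5 against young adult it was 2, and 0 with centred array medians, 0 in a fit of only the arrays of both groups and 1 with the hybridization controls as a covariate. With each array left out in turn the range was 3 to 4 genes at E10.5 and 1 to 2 at E19.5 under the stricter rule, and, at an adjusted p under 0.05, 7 to 7 at E10.5, 6 to 7 at E19.5, 4 to 5 for E10.5 against E19.5, and 0 to 1 for old against young adult. A log2 limit of 1 in place of 2 gave 5 and 3 genes. The cause was not tested, except that the fits of 6 arrays have fewer arrays to estimate the spread and that the prefix term rests on the 3 arrays of E16.5.

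The replicate numbers of E10.5 and E11.5 did not pair the arrays (correlations of deviations 0.14, -0.21 and 0.12). With the sex label as a replicate block, 7, 7, 5 and 7 genes passed for E10.5 and E19.5 against young adult, E10.5 against E19.5 and the slope, and 3 and 2 passed the stricter rule. Of all values for single genes under alternatives, 664 kept direction and side of the threshold, 49 passed in neither fit and changed sign, 37 no longer passed and 15 newly passed. No value that passed in either fit changed sign. Weak signal limits Tbx2, Isl1 and the dim probe sets, which lie near or below the level of 5.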
